A study of Mus musculus with 96 samples.

Results

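The liver is described here in 16 male C57BL/6 mice, numbered 1 to 16 in the labels, and the question is which genes differ between livers of intermittently fasted and freely fed animals. The members were chosen by the column names of the gene count table, which put 16 of the 96 RNA-seq libraries of the series in this comparison. Mice 1 to 8 ate ad libitum (AL), and mice 9 to 16 were fasted for 16 h each day (IF). Both groups started at 6 weeks of age and stayed on their regimen for 4 months, and each group holds 8 libraries, 1 per mouse. No genetic change or drug is named for either group. A second set of liver libraries, from mice 25 to 40 with the label female, also holds 8 AL and 8 IF animals, and serves only to show where the response of mice 1 to 16 differs. The methods place collection between lights on and noon, with cold saline perfusion, and state that IF mice were thereby sampled as their daily fast ended. That fast ran from late afternoon to shortly after lights on, so IF mice had food in the light phase only. The labels do not give the hour for each mouse, so that diet, time since the last meal and hour of collection cannot be told apart.

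In the fed liver, insulin favours glycolysis, glycogen storage and the synthesis of fatty acids and cholesterol. During a fast, glucagon, glucocorticoids and fatty acids released from adipose tissue shift the organ towards gluconeogenesis, fatty acid oxidation through the nuclear receptor PPARα, and ketone body formation. Meal timing also sets the phase of the circadian clock in hepatocytes, a loop in which ARNTL (BMAL1) with CLOCK or NPAS2 drives Per and Cry genes whose products hold it in check.

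Between 26097314 and 44763638 reads per AL library (median 36077590.5) and between 31458822 and 40826057 per IF library (median 39189010.5) were counted on genes. The 10 genes with the most counts took 24.1 to 32.4% of an AL library and 18.4 to 23.4% of an IF library. Genes of the mitochondrial genome took 14.5 to 25.1% (median 20.6%) in AL and 8.75 to 13.9% (median 10.7%) in IF livers, with no overlap between the groups. Of the 32 such genes tested, 7 were called higher and 11 lower, with a median log2 fold change of -0.61. Expression levels are given in CPM, the counts of a gene brought to a common library size and scaled with TMM factors over the 16 libraries, and sums over marker lists with factors over all 32 liver libraries. A positive log2 fold change means a higher level in IF livers, its error is the standard error (SE), and a gene is called where the adjusted p is under 0.05.

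The libraries fitted their tissue and sex labels. Alb, the most abundant hepatocyte marker, ranged from 24900 to 46000 CPM in AL mice, with a median of 35600, and from 20600 to 39600 CPM in IF mice, with a median of 29100. It was not called (log2 fold change -0.29, SE 0.14, adjusted p = 0.113), but was called lower without AL mouse 5 (log2 fold change -0.35, adjusted p = 0.0488) or IF mouse 11 (log2 fold change -0.40, adjusted p = 0.0346). Summed over 9 hepatocyte markers the level was 55500 to 86700 CPM in AL and 45200 to 79300 CPM in IF livers. Of these 9 markers, 1 was called higher (Trf, 0.81) and 2 lower (Apoa1, -0.48, and Fgb, -0.33), with a median log2 fold change of -0.03. Apoa1 (log2 fold change -0.38, adjusted p = 0.0869) and Fgb (log2 fold change -0.27, adjusted p = 0.196) were not called in a fit with erythrocyte markers as a covariate, described with those markers. Fgb was not called either without AL mouse 2, 3 or 7 or IF mouse 12 or 15, with adjusted p from 0.0542 to 0.0598. Xist, the RNA of the inactive X chromosome, had 21 counts over the 8 AL and 56 over the 8 IF libraries, against 305066 over the 8 AL libraries of mice 25 to 32. Of the sex-linked genes, Ddx3y, Uty, Kdm5d and Eif2s3y had counts in each of the 16 libraries and 0 counts in mice 25 to 40, and 3 of these 4 were called lower in IF, with a median of -0.49. In the covariate fit 1 of them was called, without Kdm5d (log2 fold change -0.53, adjusted p = 0.0682) and Eif2s3y (log2 fold change -0.16, adjusted p = 0.367), and the call of Eif2s3y was also lost without AL mouse 5 (log2 fold change -0.25, adjusted p = 0.0593).

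A few libraries stood apart. The correlation of log2 CPM with the mean of the other 7 libraries of the group was lowest for AL mouse 6 (0.966) and for IF mice 10 (0.959) and 9 (0.96), and without these 3 libraries 6997 genes were called in place of 7234. Summed over 7 erythrocyte markers, the level was 411 to 932 CPM (median 590) in AL and 676 to 6060 CPM (median 1990) in IF livers, with the highest sums in IF mice 9 (6060), 10 (4750) and 16 (2960). Hba-a1 was the most abundant of them. The paired copies of the globin genes are near-identical, so their single values are uncertain. Of 6 markers tested, 4 were called higher and 0 lower, with a median of 1.68. Without mice 6, 9 and 10, 2 of the 6 were called and the median was 1.03, and Hba-a1 was not called (log2 fold change 0.94, adjusted p = 0.0586). Hbb-bs had AL values of 56.2 to 168 CPM, with a median of 129, and IF values of 259 to 2650 CPM, with a median of 861 (log2 fold change 3.17, SE 0.52, adjusted p = 0.000167). Alas2, which acts in haem synthesis of red cell precursors, lay between 34.3 and 54.3 CPM in AL mice, with a median of 49.8, and between 33.8 and 93.5 CPM in IF mice, with a median of 41.6, and was not called (log2 fold change 0.18, SE 0.19, adjusted p = 0.459). With the mean log2 CPM of the erythrocyte markers as a covariate (the erythrocyte covariate), 5169 genes were called. Since these markers were themselves mostly higher in IF, the covariate goes partly with diet, and the diet effect can be estimated less precisely. A call lost in this fit therefore does not show that the gene follows erythrocyte content. IF mouse 16 held the highest sums for Kupffer cell (673 CPM) and lymphocyte markers (64.7 CPM), and 7094 genes were called without it.

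Of 16204 genes tested, 7234 (44.6%) were called, 3815 higher (23.5%) and 3419 lower (21.1%) in IF, and over all genes tested the median log2 fold change was 0.06. At least a 2-fold change was seen in 1215 of the higher and 1173 of the lower genes. The lowest library of one group lay above the highest of the other in 2418 genes (14.9%). With another scaling (RLE) the split was 3593 higher and 3624 lower, and the median 0.03. The lower calls also outnumbered the higher by DESeq2 (3818 higher and 3901 lower) and without IF mouse 9 (3410 and 3672), IF mouse 11 (3342 and 3590) or IF mouse 13 (3377 and 3671), with medians of 0.01. Neither direction is therefore read as in excess. The median log2 fold change moved with base composition, from -0.20 in the tenth of genes with the lowest GC content to 0.20 in the tenth with the highest, where mice 25 to 40 gave -0.05 and 0.02. The part of this trend in the values of single genes was not tested beyond a fit with GC offsets, which called 7082 genes. Each gene list is read against the shares and the median over all genes tested.

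The 10 genes with the largest rises among those that passed the rule for naming were Ppp1r3g, Pdgfrl, Tuba8, Usp2, Acot3, Per1, Acot1, Mt1, Cyp4a14 and Ciart. Tuba8, an alpha-tubulin gene, ranged from 0 to 0.735 CPM in AL mice, with a median of 0.094, and from 4.68 to 14.6 CPM in IF mice, with a median of 8.42 (log2 fold change 4.98, SE 0.61, adjusted p = 4.7e-06), and no AL mouse reached the lowest IF mouse. Pdgfrl had AL values of 0.552 to 1.88 CPM, with a median of 1.1, and IF values of 4.49 to 267 CPM, with a median of 15.5 (log2 fold change 5.63, SE 0.96, adjusted p = 0.00023). The groups did not overlap, but 1 IF library, of mouse 9, held the 267 CPM, and without it the log2 fold change was 4.56. The 10 largest falls were those of Mup17, Mup9, Mup-ps14, Npas2, Mup18, Derl3, Klhl31, Mup-ps12, Cfd and Mup1. The major urinary proteins carry pheromones in male urine, and 6 of the 10 belong to their cluster of near-identical genes, among which reads may have been split by the counting, so the values of single Mup genes are uncertain. Mup17, on chromosome 4 from 61510166 to 61514108 (GRCm39), lay between 1860 and 9380 CPM in AL mice, with a median of 4970, and between 2.49 and 142 CPM in IF mice, with a median of 25.6 (log2 fold change -7.15, SE 0.78, adjusted p = 3.31e-06), and every IF library was under every AL library. Mup-ps14 moved from a log2 fold change of -6.59 to -7.21 without IF mouse 11. Without IF mouse 12, which held the 142 CPM, the log2 fold change of Mup17 was -7.91. Mup1 ranged from 29.3 to 2200 CPM in AL mice, with a median of 84.6, and from 8.29 to 24.8 CPM in IF mice, with a median of 17.5 (log2 fold change -4.32, SE 0.96, adjusted p = 0.00203). The AL value of 2200 CPM was that of mouse 3 alone, and without this mouse the log2 fold change was -2.19. Klhl31 had AL values of 6.2 to 28.8 CPM, with a median of 15, and IF values of 0.0505 to 1.42 CPM, with a median of 0.281 (log2 fold change -5.22, SE 0.52, adjusted p = 5.44e-07), again with no overlap.

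Per1, Ciart, Usp2 and Npas2 among these genes belong to the circadian clock or its outputs. Of 5 clock activators, 1 was called higher and 3 lower, with a median log2 fold change of -0.43. Arntl, on chromosome 7 from 112806672 to 112913333, encodes the core activator BMAL1 and lay between 14.5 and 24.8 CPM in AL mice, with a median of 20.3, and between 3.02 and 6.89 CPM in IF mice, with a median of 5.8 (log2 fold change -1.91, SE 0.16, adjusted p = 1.55e-09). All IF mice were under all AL mice. Npas2, a partner of ARNTL that can stand in for CLOCK, ranged from 2.11 to 13.7 CPM in AL mice, with a median of 8.11, and from 0 to 0.428 CPM in IF mice, with a median of 0, and 5 of the 8 IF libraries had no count (log2 fold change -6.22, SE 0.67, adjusted p = 8.76e-07). Without IF mouse 10, the IF library with the most Npas2, the log2 fold change was -7.01. Clock itself fell by less (log2 fold change -0.43, SE 0.11, adjusted p = 0.00241) and its groups overlapped. With the erythrocyte covariate Clock was not called (log2 fold change -0.30, adjusted p = 0.0819), which left 2 activators lower.

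Of 10 clock repressors, 9 rose and 1 fell, with a median of 1.43. Per1, on chromosome 11 from 68986043 to 69000786, had AL values of 2.96 to 8.09 CPM, with a median of 6.1, and IF values of 49.7 to 183 CPM, with a median of 131 (log2 fold change 4.53, SE 0.29, adjusted p = 1.8e-09). Every IF mouse lay above every AL mouse, and IF mouse 10 was the lowest of its group. Ciart, a repressor of the ARNTL complex, lay between 0.0858 and 2.96 CPM in AL mice, with a median of 1.5, and between 13.1 and 42.4 CPM in IF mice, with a median of 22.7 (log2 fold change 3.92, SE 0.48, adjusted p = 8.33e-06), also without overlap. Per3 (2.22) and Cry1 (0.96) rose as well. Nr1d1, the gene of REV-ERBα, which represses Arntl, was the 1 that fell. It ranged from 46 to 144 CPM in AL mice, with a median of 79.4, and from 7.94 to 28.8 CPM in IF mice, with a median of 19.5 (log2 fold change -1.96, SE 0.26, adjusted p = 7.44e-06), and its span overlaps that of Thra on the other strand. The groups did not overlap, and AL mouse 8 was well above the rest of its group.

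Of 8 clock output genes, 7 rose and 0 fell, with a median of 1.60. Dbp, a transcription factor gene with a wide daily swing in liver, had AL values of 1.35 to 29.6 CPM, with a median of 5.7, and IF values of 22 to 35.1 CPM, with a median of 25.3 (log2 fold change 1.51, SE 0.46, adjusted p = 0.0142). AL mouse 8, at 29.6 CPM, overlapped the IF group, while the other 7 AL mice lay at 14.4 CPM or less. Wee1, which restrains entry into mitosis, lay between 0.353 and 2.23 CPM in AL mice, with a median of 1.42, and between 7.83 and 11.4 CPM in IF mice, with a median of 9.39 (log2 fold change 2.82, SE 0.24, adjusted p = 2e-09), with no overlap.

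**Figure D1:**
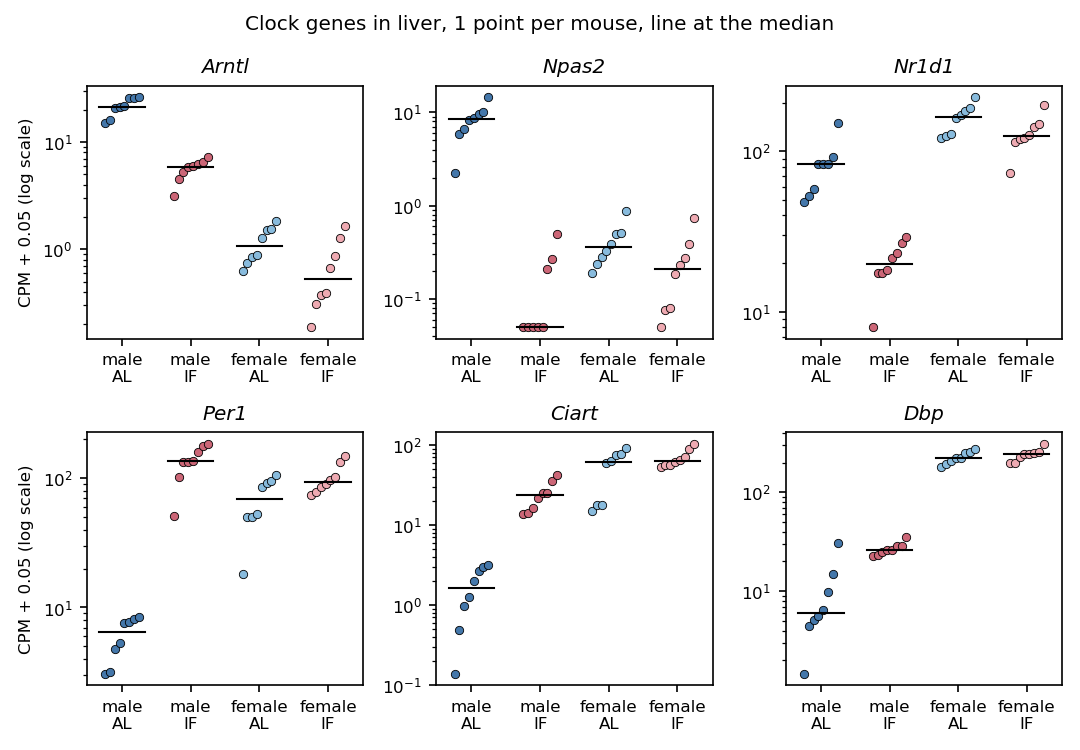
Levels of 6 clock genes in liver, 1 point per mouse, in CPM with 0.05 added on a log axis (scaled over 32 libraries), for 8 AL and 8 IF male mice and 8 AL and 8 IF female mice, with a line at the median. Arntl, Npas2 and Nr1d1 lay lower and Per1 and Ciart higher in every male IF mouse than in any male AL mouse, while Dbp overlapped.

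Promoters are shown for Per1, Per3 and Ciart, 3 of the 9 repressors that rose, which were chosen for the motifs found in them. The windows are RefSeq promoters on GRCm38.p6, of 300 bases each, from 250 before to 50 after the start of transcription. Among 32851 such windows, the E-box CACGTG, to which ARNTL and CLOCK bind, occurred in 7.15%, and the D-box TTATGNAA, the motif of DBP and its relatives, in 3.38% on either strand. Of the 10 clock repressors 8 had a window, 4 of them with an E-box (Per1, Cry1, Ciart and Bhlhe41) and 2 with a D-box (Per1 and Per3), while Nr1d1, Nr1d2 and Cry2 had neither. A gene was counted where any of its windows held the motif, and the shares are of single windows. Per1 had 2 windows, and the one not shown held neither motif. Of the 5 activators 3 had one, with neither motif. Of the 8 outputs 7 had one, with an E-box in 1 (Tef) and a D-box in 1 (Noct). The E-box was not particular to genes that rose. Of 25 genes of cholesterol synthesis and uptake, most of which fell, 17 had a window. An E-box was found in 4 of them (Hsd17b7, Sc5d, Dhcr7 and Insig1) and a D-box in 0. A match describes the letters only. Capitals mark the E-boxes and D-boxes in the sequences of Per1 (chr11:69098699-69098998, plus strand), Per3 (chr4:151044616-151044915, minus strand) and Ciart (chr3:95882179-95882478, minus strand), written 5′ to 3′.
Per1: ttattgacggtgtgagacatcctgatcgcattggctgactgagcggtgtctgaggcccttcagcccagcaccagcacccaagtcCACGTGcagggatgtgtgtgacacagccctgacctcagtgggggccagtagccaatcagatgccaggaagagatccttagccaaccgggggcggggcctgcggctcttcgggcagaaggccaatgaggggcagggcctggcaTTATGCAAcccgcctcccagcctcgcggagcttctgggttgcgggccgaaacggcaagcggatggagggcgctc
Per3: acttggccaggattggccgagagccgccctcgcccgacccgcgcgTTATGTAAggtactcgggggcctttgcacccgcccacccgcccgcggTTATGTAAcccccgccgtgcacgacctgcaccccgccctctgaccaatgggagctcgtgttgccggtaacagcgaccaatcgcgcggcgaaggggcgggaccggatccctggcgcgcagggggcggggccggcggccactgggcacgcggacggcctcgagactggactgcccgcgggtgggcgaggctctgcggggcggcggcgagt
Ciart: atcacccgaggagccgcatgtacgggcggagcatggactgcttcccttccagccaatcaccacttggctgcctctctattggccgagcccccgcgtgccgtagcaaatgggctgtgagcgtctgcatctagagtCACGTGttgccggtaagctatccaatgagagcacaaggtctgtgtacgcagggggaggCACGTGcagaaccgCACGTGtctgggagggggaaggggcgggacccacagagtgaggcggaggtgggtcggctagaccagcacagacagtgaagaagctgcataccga

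Of 9 gluconeogenic genes, 8 were called higher and 0 lower, with a median of 0.79. Pck1, the gene of the enzyme that commits oxaloacetate to glucose formation, ranged from 214 to 765 CPM in AL mice, with a median of 572, and from 1100 to 1920 CPM in IF mice, with a median of 1390 (log2 fold change 1.44, SE 0.20, adjusted p = 3.35e-06), and the groups did not overlap. Fbp1 (log2 fold change 1.30, SE 0.16, adjusted p = 5.18e-07) and Slc37a4, which carries glucose 6-phosphate into the endoplasmic reticulum (log2 fold change 1.29, SE 0.13, adjusted p = 3.36e-08), followed the same direction. Fbp1 overlapped between the groups and Slc37a4 did not.

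In glycolysis and glucose uptake, 8 of 17 genes were higher and 3 lower, with a median of 0.29. Pklr, the liver pyruvate kinase at the last step, had AL values of 14.2 to 87.2 CPM, with a median of 36.7, and IF values of 11 to 22 CPM, with a median of 14.6 (log2 fold change -1.46, SE 0.32, adjusted p = 0.00151), and the groups overlapped in part. With the erythrocyte covariate Pklr was not called (log2 fold change -1.11, adjusted p = 0.0567), and 1 gene of the list was lower. Gckr fell (log2 fold change -1.30, SE 0.12, adjusted p = 1.11e-08), with no overlap. Ldha, the lactate dehydrogenase subunit, lay between 124 and 405 CPM in AL mice, with a median of 216, and between 719 and 1010 CPM in IF mice, with a median of 816 (log2 fold change 1.87, SE 0.17, adjusted p = 5.65e-09), and every IF mouse lay above every AL mouse.

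Of 16 glycogen genes, 15 were tested, 7 rose and 5 fell, and the median was -0.01, or 0.16 with GC offsets, 0.03 with the erythrocyte covariate and 0.02 without mice 6, 9 and 10. The regulatory subunits that bring protein phosphatase 1 to glycogen moved in opposite directions. Ppp1r3g ranged from 0 to 0.815 CPM in AL mice, with a median of 0.127, and from 26.1 to 126 CPM in IF mice, with a median of 41.5, with 47 counts over the 8 AL and 16226 over the 8 IF libraries (log2 fold change 8.16, SE 0.59, adjusted p = 3.19e-08). The lowest IF mouse exceeded every AL mouse, and without AL mouse 6 the log2 fold change was 8.81. Ppp1r3c had AL values of 22.4 to 102 CPM, with a median of 43.3, and IF values of 10.1 to 28.1 CPM, with a median of 13.5 (log2 fold change -1.70, SE 0.31, adjusted p = 0.000327), with a small overlap, and Ppp1r3b was lower as well (-0.84), though not called with the erythrocyte covariate (log2 fold change -0.50, adjusted p = 0.0734). Gys2, the liver glycogen synthase, rose (log2 fold change 0.99, SE 0.10, adjusted p = 4.81e-08), while Pygl, the liver glycogen phosphorylase, fell (log2 fold change -0.66, SE 0.10, adjusted p = 5.5e-06), and neither overlapped between the groups.

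In fatty acid oxidation, 27 of 36 genes rose and 1, Etfa, was called lower (-0.33), with a median of 1.18. The call of Etfa (adjusted p = 0.0499) was lost in 10 of the 16 fits that left out 1 library, with adjusted p from 0.0513 to 0.145 (AL mice 1, 3, 6, 7 and 8, and IF mice 9, 10, 12, 13 and 15). Without AL mouse 6 its log2 fold change was -0.21. It was also lost with the erythrocyte covariate (log2 fold change -0.34, adjusted p = 0.127), with GC offsets (log2 fold change -0.22, adjusted p = 0.18) and without mice 6, 9 and 10 (log2 fold change -0.14, adjusted p = 0.33), so that 0 genes of the list were lower there. Cyp4a14, a PPARα target that hydroxylates the terminal carbon of fatty acids, lay between 26.5 and 158 CPM in AL mice, with a median of 61.6, and between 799 and 1670 CPM in IF mice, with a median of 1190 (log2 fold change 3.99, SE 0.42, adjusted p = 1.43e-06), and no AL mouse came near the IF range. Cpt1a, which admits long-chain fatty acids to mitochondria, ranged from 76.3 to 119 CPM in AL mice, with a median of 96.1, and from 177 to 279 CPM in IF mice, with a median of 221 (log2 fold change 1.17, SE 0.11, adjusted p = 7.91e-09), without overlap. Pdk4, a kinase that shuts off pyruvate dehydrogenase, had AL values of 5.63 to 15 CPM, with a median of 8.75, and IF values of 23.6 to 39.8 CPM, with a median of 32.4 (log2 fold change 1.75, SE 0.18, adjusted p = 3.03e-08), again without overlap. The acyl-CoA thioesterase genes Acot1 (4.16) and Acot3 (4.84) showed the largest changes of the list, and as close relatives in 1 gene cluster they could share reads.

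Of 6 genes that make ketone bodies from acetyl-CoA or carry them, 2 were higher and 1 lower, with a median of 0.21. Acat1, which joins and splits acetyl-CoA units, was called higher (log2 fold change 0.30, SE 0.11, adjusted p = 0.0321), with overlap. That call was lost without any of AL mice 2, 4, 5, 7 and 8 and IF mice 11, 12, 13 and 14, with adjusted p from 0.0544 to 0.0917. It was lost with RLE scaling (log2 fold change 0.27, adjusted p = 0.0527) and with the erythrocyte covariate (log2 fold change 0.34, adjusted p = 0.0606) too. Slc16a6, a transporter that exports ketone bodies, fell (log2 fold change -1.53, SE 0.20, adjusted p = 1.08e-06), with an overlap of its span with other genes that makes its count uncertain, though its AL and IF values did not overlap.

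Of 21 genes of fatty acid and triglyceride synthesis, 4 rose and 11 fell, with a median of -0.44, and with the erythrocyte covariate 3 rose and 6 fell, with a median of -0.30. Fasn, fatty acid synthase, lay between 384 and 1390 CPM in AL mice, with a median of 568, and between 125 and 211 CPM in IF mice, with a median of 155 (log2 fold change -2.18, SE 0.25, adjusted p = 7.78e-07), and every IF mouse lay under every AL mouse. Acly, which supplies cytosolic acetyl-CoA, fell too (log2 fold change -1.71, SE 0.18, adjusted p = 1.59e-07), and so did Scd1 (log2 fold change -0.91, SE 0.25, adjusted p = 0.00564), the latter with overlap. Srebf1, the gene of the lipogenic factor SREBP-1, ranged from 305 to 690 CPM in AL mice, with a median of 432, and from 116 to 349 CPM in IF mice, with a median of 248 (log2 fold change -1.05, SE 0.25, adjusted p = 0.00238), with overlap, and was not called with that covariate (log2 fold change -0.75, adjusted p = 0.0824). Acaca, acetyl-CoA carboxylase, had AL values of 53.9 to 78.1 CPM, with a median of 64.9, and IF values of 50.1 to 68.9 CPM, with a median of 58.2, and was not called (log2 fold change -0.13, SE 0.11, adjusted p = 0.35). Lpin1, a phosphatidate phosphatase that also acts with PPARα as a coactivator, went the other way. It lay between 9.42 and 26.4 CPM in AL mice, with a median of 15.9, and between 23.6 and 368 CPM in IF mice, with a median of 130 (log2 fold change 3.23, SE 0.47, adjusted p = 5.42e-05), and the lowest IF mouse fell within the AL range.

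In cholesterol synthesis and uptake, 18 of 25 genes fell and 2 rose, with a median of -1. Sqle, squalene epoxidase, ranged from 13.5 to 69.3 CPM in AL mice, with a median of 24.1, and from 3.15 to 13 CPM in IF mice, with a median of 5.18 (log2 fold change -2.29, SE 0.35, adjusted p = 5.09e-05). The groups barely missed each other, and AL mouse 2 and IF mouse 11 were the highest of their groups. Fdps (log2 fold change -2.66, SE 0.49, adjusted p = 0.000296) and Dhcr7 (log2 fold change -2.31, SE 0.24, adjusted p = 2.88e-07) fell, the former with overlap between the groups and the latter without.

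Among 25 bile acid genes, 11 were higher and 8 lower, with a median of -0.10, and with the erythrocyte covariate 9 and 5, with a median of 0.03. Cyp7a1, the rate-limiting enzyme of bile acid synthesis, had AL values of 12.1 to 54.1 CPM, with a median of 33.6, and IF values of 7.8 to 25.2 CPM, with a median of 16.5 (log2 fold change -1.04, SE 0.29, adjusted p = 0.00835), with overlap, and was not called with that covariate (log2 fold change -0.96, adjusted p = 0.0911). Cyp8b1, which sets the share of cholic acid, lay between 144 and 289 CPM in AL mice, with a median of 238, and between 106 and 339 CPM in IF mice, with a median of 160, and was not called (log2 fold change -0.41, SE 0.21, adjusted p = 0.111). It passed the threshold without AL mouse 3 (log2 fold change -0.49, adjusted p = 0.049), IF mouse 11 (log2 fold change -0.54, adjusted p = 0.035) or IF mouse 12 (log2 fold change -0.60, adjusted p = 0.0056), and with GC offsets (log2 fold change -0.54, adjusted p = 0.0466). Abcg5 (0.98) and Abcg8 (0.74), neighbours whose spans overlap and whose products export sterols into bile, were higher.

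**Figure D2:**
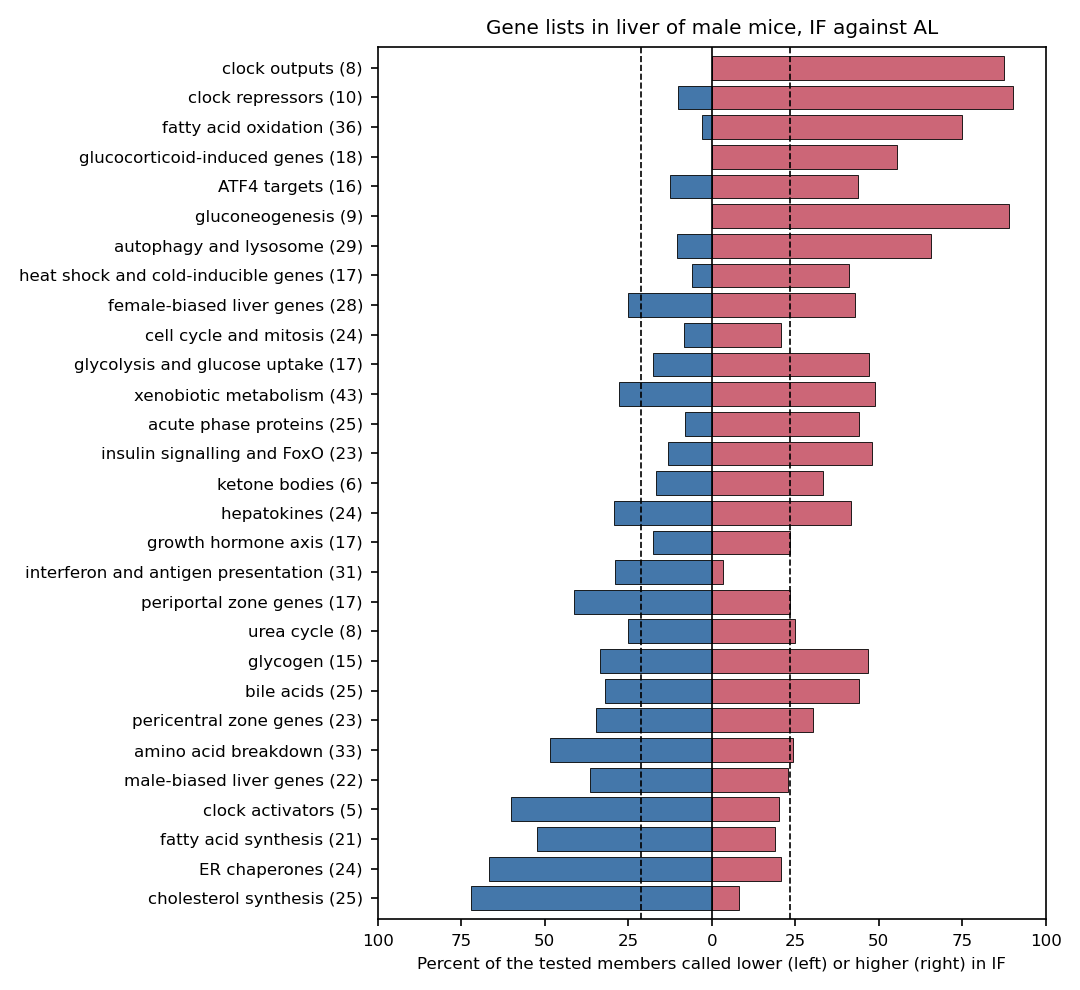
Share of the tested members of 29 gene lists called higher (right, red) or lower (left, blue) in livers of 8 IF against 8 AL male mice, in percent, ordered by the median log2 fold change, with the number tested in parentheses. Dashed lines mark the shares over all 16204 genes tested, 23.5% higher and 21.1% lower, and cholesterol synthesis and ER chaperones reached furthest to the left.

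Of 23 insulin signalling and FoxO genes, 11 rose and 3 fell, with a median of 0.27. Igfbp1, a binding protein of insulin-like growth factors that insulin represses through FOXO1, ranged from 1.32 to 28.2 CPM in AL mice, with a median of 9.26, and from 42.6 to 176 CPM in IF mice, with a median of 87.5 (log2 fold change 3.23, SE 0.51, adjusted p = 0.000121), and the groups did not overlap. Foxo1 had AL values of 8.76 to 17 CPM, with a median of 13.7, and IF values of 37.4 to 48.3 CPM, with a median of 41.8 (log2 fold change 1.57, SE 0.12, adjusted p = 2.17e-10), without overlap, whereas Insr, the insulin receptor, was slightly lower (log2 fold change -0.26, SE 0.09, adjusted p = 0.0202). Insr was not called with the erythrocyte covariate (log2 fold change -0.17, adjusted p = 0.241) or without mice 6, 9 and 10 (log2 fold change -0.18, adjusted p = 0.1), and in either fit 1 gene of the list was lower.

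Of 20 genes known to be induced by glucocorticoids, 18 were tested, 10 rose and 0 fell, with a median of 1.01, while 1 was called lower with RLE scaling and with GC offsets. Fkbp5, a cochaperone of the glucocorticoid receptor, lay between 5.88 and 13.6 CPM in AL mice, with a median of 8.31, and between 15.7 and 79.3 CPM in IF mice, with a median of 53 (log2 fold change 2.46, SE 0.32, adjusted p = 1.07e-05), with no overlap. The metallothionein gene Mt1, which also responds to zinc, ranged from 5.19 to 12.7 CPM in AL mice, with a median of 7.44, and from 25.5 to 365 CPM in IF mice, with a median of 145 (log2 fold change 4.11, SE 0.54, adjusted p = 2.14e-05), and IF mice spread widely but all above AL mice. Gadd45b, a stress response gene, rose with a log2 fold change of 3.44. Tat, tyrosine aminotransferase and a classical target of the receptor, had AL values of 476 to 1080 CPM, with a median of 703, and IF values of 523 to 1460 CPM, with a median of 884, and was not called (log2 fold change 0.32, SE 0.19, adjusted p = 0.186), except without AL mouse 2 and IF mouse 10 (log2 fold change 0.52, adjusted p = 0.0211). Per1, Pck1 and Angptl4 belong to this list as well as to others.

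Of 17 genes of the growth hormone axis, 4 were higher and 3 lower (41.2%, against 44.6% over all genes tested), with a median of 0.17. Igf1 lay between 754 and 1170 CPM in AL mice, with a median of 915, and between 597 and 969 CPM in IF mice, with a median of 836, and was not called (log2 fold change -0.22, SE 0.12, adjusted p = 0.151). Ghr, the growth hormone receptor, was lower (log2 fold change -0.49, SE 0.12, adjusted p = 0.00153), with AL mouse 1 highest at 537 CPM. Socs2, a feedback inhibitor that follows pulses of the hormone, ranged from 3.13 to 57.6 CPM in AL mice, with a median of 13.1, and from 15 to 91.7 CPM in IF mice, with a median of 41.4, and was not called (log2 fold change 1.20, SE 0.55, adjusted p = 0.0926). Without AL mouse 8 it was called higher (log2 fold change 1.63, adjusted p = 0.0217), as it was in the fit over 32 libraries (log2 fold change 1.16, adjusted p = 0.0452). Igfbp2 rose (log2 fold change 1.81, SE 0.18, adjusted p = 2.38e-08) and Prlr, the prolactin receptor, fell (log2 fold change -1.33, SE 0.13, adjusted p = 1.58e-08), each without overlap.

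Growth hormone pulses set most differences between male and female mouse liver. Of 22 male-biased genes, 5 were higher and 8 lower in IF, with a median of -0.34. Elovl3, a fatty acid elongase, had AL values of 344 to 674 CPM, with a median of 429, and IF values of 70.7 to 166 CPM, with a median of 101 (log2 fold change -2.08, SE 0.16, adjusted p = 6.46e-10), and no IF mouse reached the AL range. Hsd3b5 (log2 fold change -1.14, SE 0.18, adjusted p = 2.75e-05) and Cyp4a12a (log2 fold change -0.88, SE 0.17, adjusted p = 0.000156) fell, and Cyp2d9 rose (log2 fold change 0.41, SE 0.12, adjusted p = 0.00746), though it was not called in the fit over 32 libraries (log2 fold change 0.37, adjusted p = 0.213). The last of these overlapped between the groups, as did Cyp4a12a, which has a near-identical neighbour. Of 40 female-biased genes, 28 passed the filter, 12 rose and 7 fell, with a median of 0.36, and since some pass it only through the group in which they are high these counts are a description. Cyp2a4 lay between 0.0301 and 0.635 CPM in AL mice, with a median of 0.246, and between 2.39 and 4.25 CPM in IF mice, with a median of 2.93 (log2 fold change 3.41, SE 0.37, adjusted p = 6.2e-08), without overlap, but mice 25 to 32 on AL held a median of 1020 CPM (scaled over 32 libraries). Cux2, a repressor of male-biased genes, was higher (log2 fold change 1.09, SE 0.36, adjusted p = 0.0164), a call that was lost without IF mouse 9 (log2 fold change 0.82, adjusted p = 0.0644), without mice 6, 9 and 10 (log2 fold change 0.87, adjusted p = 0.075), with the erythrocyte covariate (log2 fold change 0.63, adjusted p = 0.294) and in the fit over 32 libraries (log2 fold change 1.07, adjusted p = 0.0624). Cyp3a16 had 2 counts over the 8 AL and 148 over the 8 IF libraries, and Sult2a1 had 0 counts in both groups.

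In amino acid breakdown, 16 of 33 genes were lower and 8 higher, with a median of -0.21. Bhmt, which remethylates homocysteine with betaine, ranged from 2450 to 4230 CPM in AL mice, with a median of 3040, and from 254 to 785 CPM in IF mice, with a median of 508 (log2 fold change -2.59, SE 0.17, adjusted p = 4.94e-11), and the groups were far apart. Gnmt, which uses up the methyl donor S-adenosylmethionine, went up (log2 fold change 1.59, SE 0.12, adjusted p = 1.57e-10), with no overlap. In the urea cycle, 2 of 8 genes were higher and 2 lower, with a median of 0.03 (-0.03 with GC offsets and with the erythrocyte covariate), and single steps moved apart. Otc had AL values of 302 to 533 CPM, with a median of 378, and IF values of 97.9 to 192 CPM, with a median of 156 (log2 fold change -1.36, SE 0.14, adjusted p = 2.66e-08). Asl, a later step of the cycle, lay between 466 and 652 CPM in AL mice, with a median of 566, and between 927 and 1320 CPM in IF mice, with a median of 1130 (log2 fold change 0.97, SE 0.10, adjusted p = 7.29e-08). Neither overlapped between the groups.

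Of 24 genes of chaperones and protein quality control in the endoplasmic reticulum (ER), 16 fell and 5 rose, with a median of -0.74. Derl3, part of the channel that returns misfolded proteins to the cytosol, is not in this list and was named for its large fall. Derl3 ranged from 5.15 to 154 CPM in AL mice, with a median of 26.7, and from 0.658 to 1.88 CPM in IF mice, with a median of 1.13 (log2 fold change -5.51, SE 0.76, adjusted p = 3.2e-05). No IF mouse was within the AL range of Derl3. Within the list, the named genes that fell include the next 2. Sdf2l1 had AL values of 18.1 to 80.1 CPM, with a median of 32, and IF values of 2.55 to 5.4 CPM, with a median of 4.76 (log2 fold change -3.17, SE 0.30, adjusted p = 2.47e-07), with no overlap. Hspa5, the gene of the chaperone BiP, lay between 246 and 658 CPM in AL mice, with a median of 421, and between 203 and 301 CPM in IF mice, with a median of 230 (log2 fold change -0.79, SE 0.17, adjusted p = 0.000462), with some overlap. Manf (log2 fold change -1.99, SE 0.23, adjusted p = 1.18e-06) and Syvn1 (log2 fold change -1.95, SE 0.35, adjusted p = 0.000272) fell, and Herpud1, also of the degradation pathway, rose (log2 fold change 1.61, SE 0.17, adjusted p = 6.21e-08). In the list of heat shock and cold-inducible genes, 7 of 17 were higher and 1 lower, with a median of 0.45, and without mice 6, 9 and 10 there were 6 and 3. The mitochondrial chaperones Hspd1 (0.90) and Hspe1 (0.74), which share a promoter region and overlap, were higher, and Cirbp, a cold-inducible RNA-binding protein, ranged from 31.1 to 58.8 CPM in AL mice, with a median of 40.9, and from 28.2 to 55.8 CPM in IF mice, with a median of 47.2, and was not called (log2 fold change 0.03, SE 0.17, adjusted p = 0.9).

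Of 18 ATF4 targets, 16 were tested, 7 rose and 2 fell, with a median of 0.80. Atf4 itself is counted in this list and was among the genes that fell (log2 fold change -0.65, SE 0.13, adjusted p = 0.000193). Cebpb (log2 fold change 1.56, SE 0.18, adjusted p = 2.78e-07) and the pseudokinase gene Trib3 (log2 fold change 1.15, SE 0.16, adjusted p = 2.57e-06) were higher without overlap. Autophagy and lysosome genes rose in 19 of 29 cases and fell in 3, with a median of 0.49. Map1lc3a, which encodes a protein of the autophagosome membrane, had AL values of 24.3 to 42.2 CPM, with a median of 28.6, and IF values of 59.2 to 90.9 CPM, with a median of 78.8 (log2 fold change 1.29, SE 0.12, adjusted p = 6.15e-09), and the lysosomal hexosaminidase gene Hexa rose (log2 fold change 1.23, SE 0.12, adjusted p = 2.52e-08). Neither overlapped, while Atg5, needed to build autophagosomes, fell with overlap (log2 fold change -0.57, SE 0.15, adjusted p = 0.00313).

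Among 24 genes of hormones and other proteins secreted by the liver, 10 were higher and 7 lower, with a median of 0.21. Inhba, the activin A subunit, lay between 4.76 and 24.9 CPM in AL mice, with a median of 18.2, and between 1.12 and 3.03 CPM in IF mice, with a median of 1.81 (log2 fold change -3.15, SE 0.28, adjusted p = 1.67e-08), without overlap. Angptl8, whose secreted product acts on lipoprotein lipase and rises with feeding, ranged from 205 to 1140 CPM in AL mice, with a median of 356, and from 50.8 to 173 CPM in IF mice, with a median of 84.2 (log2 fold change -2.42, SE 0.44, adjusted p = 0.000369), and every IF mouse was under every AL mouse. Fgf21, a hormone induced by fasting and amino acid lack, had AL values of 0.777 to 9.23 CPM, with a median of 3.14, and IF values of 5.25 to 13.9 CPM, with a median of 7.54 (log2 fold change 0.99, SE 0.37, adjusted p = 0.0383). Its groups overlapped, and the call was lost in 10 of the 16 fits that left out 1 library, with adjusted p from 0.0512 to 0.0756 (AL mice 1, 4, 5, 6 and 7, and IF mice 9, 11, 14, 15 and 16). It was lost with the erythrocyte covariate (log2 fold change 1.18, adjusted p = 0.0713), with GC offsets (log2 fold change 0.84, adjusted p = 0.08) and without mice 6, 9 and 10 (log2 fold change 1.04, adjusted p = 0.0882) as well. Gdf15, a stress hormone, lay between 18.7 and 101 CPM in AL mice, with a median of 33.2, and between 25.5 and 95 CPM in IF mice, with a median of 69, and was not called (log2 fold change 0.67, SE 0.32, adjusted p = 0.107). It was called without AL mouse 6, which held the 101 CPM (log2 fold change 0.99, adjusted p = 0.00343), without IF mouse 16 (log2 fold change 0.79, adjusted p = 0.0413), and without mice 6, 9 and 10 (log2 fold change 0.97, adjusted p = 0.0167).

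Of 26 acute phase genes, 25 were tested, 11 rose and 2 fell, with a median of 0.28, and with the erythrocyte covariate 4 rose and 1 fell, with a median of 0.25. Orm2 ranged from 7.52 to 16.9 CPM in AL mice, with a median of 13.4, and from 18.7 to 143 CPM in IF mice, with a median of 24.5 (log2 fold change 1.86, SE 0.44, adjusted p = 0.00304), and the groups did not overlap. With that covariate Orm2 was not called (log2 fold change 1.05, adjusted p = 0.1), nor were Saa2 (log2 fold change 0.58, adjusted p = 0.629) and Saa1 (log2 fold change 0.51, adjusted p = 0.627). Cp, the gene of ceruloplasmin, fell (log2 fold change -0.78, SE 0.11, adjusted p = 3.66e-06). Saa2, which shares sequence with Saa1, had AL values of 2.61 to 12.1 CPM, with a median of 5.92, and IF values of 7.12 to 138 CPM, with a median of 8.7 (log2 fold change 1.97, SE 0.72, adjusted p = 0.0365). The value of 138 CPM was that of IF mouse 16, and without this mouse Saa2 was not called (log2 fold change 0.57, adjusted p = 0.122), nor was it without any of AL mice 1, 2, 3, 4, 7 and 8, with adjusted p from 0.056 to 0.0655. Saa1 was called as well (log2 fold change 1.57, SE 0.61, adjusted p = 0.0488), but not without IF mouse 16 (log2 fold change 0.62, adjusted p = 0.192), nor without any of AL mice 2, 3, 4, 5, 6, 7 and 8 and IF mice 10 and 12, with adjusted p from 0.0515 to 0.085. By DESeq2 neither Saa2 (log2 fold change 0.52, adjusted p = 0.125) nor Saa1 (log2 fold change 0.57, adjusted p = 0.216) was called. Lcn2 lay between 1.55 and 4.77 CPM in AL mice, with a median of 2.04, and between 1.56 and 14.3 CPM in IF mice, with a median of 2.35, again highest in IF mouse 16, and was not called (log2 fold change 0.64, SE 0.42, adjusted p = 0.223).

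Xenobiotic metabolism held 43 tested genes, 21 higher and 12 lower, with a median of 0.28. Ces1d, a carboxylesterase that also mobilises stored fat, ranged from 128 to 314 CPM in AL mice, with a median of 154, and from 1100 to 1580 CPM in IF mice, with a median of 1300 (log2 fold change 2.83, SE 0.16, adjusted p = 6.02e-12), far apart between the groups. Cyp2c54 (log2 fold change -1.36, SE 0.14, adjusted p = 1.84e-08) and the glutathione transferase gene Gstt1 (log2 fold change -1.14, SE 0.13, adjusted p = 1.27e-07) fell without overlap.

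Hepatocytes differ in their tasks along the lobule, from the portal to the central vein. Of 17 periportal genes, 4 were higher and 7 lower (median 0.04, or -0.10 with the erythrocyte covariate), and of 23 pericentral genes, 7 were higher and 8 lower (median -0.15), against 5 and 4 with that covariate. Cyp2e1, a pericentral cytochrome P450 that fasting induces, had AL values of 1520 to 4150 CPM, with a median of 2930, and IF values of 5720 to 10200 CPM, with a median of 8580 (log2 fold change 1.55, SE 0.17, adjusted p = 1.28e-07), without overlap. Glul, the pericentral glutamine synthetase, rose (log2 fold change 0.82, SE 0.13, adjusted p = 1.35e-05), and Lgr5, a receptor that marks cells beside the central vein, lay between 7.85 and 18 CPM in AL mice, with a median of 12, and between 2.16 and 5.23 CPM in IF mice, with a median of 3.17 (log2 fold change -1.82, SE 0.21, adjusted p = 1.68e-07). Neither gene overlapped. Apof, from the periportal list, fell (log2 fold change -1.19, SE 0.16, adjusted p = 1.53e-06).

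Of 26 genes of the cell cycle and mitosis, 24 were tested. Of these, 5 were higher and 2 lower (29.2%, against 44.6% over all genes tested), with a median of 0.31. With the erythrocyte covariate 3 were higher and 1 lower, with a median of 0.09. Mki67, a marker of dividing cells, ranged from 0.92 to 3.05 CPM in AL mice, with a median of 1.24, and from 1.53 to 3.08 CPM in IF mice, with a median of 1.8, and was not called (log2 fold change 0.36, SE 0.28, adjusted p = 0.314). Ccne1, a cyclin of entry into DNA synthesis, had AL values of 0.198 to 0.784 CPM, with a median of 0.49, and IF values of 1.66 to 3.85 CPM, with a median of 2.22 (log2 fold change 2.27, SE 0.32, adjusted p = 2.98e-06). Ccnd1, a cyclin of the preceding phase, lay between 0.903 and 1.38 CPM in AL mice, with a median of 1.27, and between 1.93 and 6.96 CPM in IF mice, with a median of 2.94 (log2 fold change 1.54, SE 0.25, adjusted p = 2.09e-05). Neither overlapped between the groups, and IF mouse 16 was highest in both. Of 31 genes of interferon response and antigen presentation, 1 was higher and 9 lower (32.3%, also under the share over all genes tested). The median was 0.06 (-0.04 with GC offsets). B2m, the light chain of class I molecules, ranged from 2440 to 3450 CPM in AL mice, with a median of 3050, and from 1090 to 1960 CPM in IF mice, with a median of 1170 (log2 fold change -1.23, SE 0.13, adjusted p = 2.97e-08), without overlap. Isg15 fell (log2 fold change -1.77, SE 0.37, adjusted p = 0.000745), with IF mouse 16 at 10.9 CPM inside the AL range. Gbp2, the 1 that rose (log2 fold change 1.82, SE 0.55, adjusted p = 0.0122), was not called without that mouse (log2 fold change 0.88, adjusted p = 0.0534) or with the erythrocyte covariate (log2 fold change 0.81, adjusted p = 0.412), where 0 genes of the list were higher, 8 were lower and the median was -0.24.

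Other cells of the liver were followed by their markers. Over all genes tested, 44.6% were called. The share called was 55.6% for sinusoidal endothelial and 80% for cholangiocyte markers. It was under that of all genes for stellate cell (30%), Kupffer cell (25%) and lymphocyte markers (20%). The 9 sinusoidal endothelial markers summed to 299 to 381 CPM in AL and 412 to 691 CPM in IF livers, with 5 called higher, 0 lower and a median of 0.67, and Stab1 was the most abundant. Stellate cell markers summed to 302 to 390 CPM and 430 to 528 CPM, with 3 of 10 higher, 0 lower, a median of 0.28 and Ecm1 the most abundant. In neither list did the sums of the groups overlap. Kupffer cell markers summed to 155 to 285 CPM in AL and 181 to 673 CPM in IF livers (2 of 8 higher, 0 lower, median 0.33), and Clec4f led. With the erythrocyte covariate 0 of these 8 were called, and the median was -0.05. Of 6 cholangiocyte markers 5 were tested, 3 higher and 1 lower (median 1.14), with sums of 61.3 to 138 and 77.6 to 149 CPM, mostly Spp1. Lymphocyte markers summed to 10.5 to 24.9 and 10.4 to 64.7 CPM, with 10 of 12 tested, 1 higher, 1 lower and a median of 0.19, or -0.19 with the covariate.

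Neutrophil markers were near 0, with sums of 1.94 to 8.05 and 0.954 to 11.1 CPM, 2 of 8 tested, 0 called and a median of 0.63, S100a9 leading, Ly6g at 0 in every AL library and Ngp at 0 in every IF library. The adipocyte list came down to Cfd, which had AL values of 11.6 to 35.6 CPM, with a median of 22.9, and IF values of 0.347 to 1.48 CPM, with a median of 0.852 (log2 fold change -4.70, SE 0.30, adjusted p = 2.38e-10), since Adipoq, Plin1, Lep and Retn were too low to test and Lep was at 0 in every IF library. The exocrine pancreas list came down to Cela1 (summed 20 to 47.6 and 15.9 to 32 CPM, log2 fold change -0.65, 1 of 7 tested), with Cpa1 and Amy2a5 at 0 in every library of both groups. In whole liver, fewer cells of a type and less RNA per cell cannot be told apart, and the part of these cells and of the erythrocyte sums in the counts of called genes was not tested beyond the covariate fit.

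The livers of mice 25 to 40 were compared in 1 fit over 32 libraries and 17658 genes, in which 7335 genes (41.5%) were called for mice 1 to 16. For mice 25 to 40, edgeR called 0 genes (0%), with 1037 at an unadjusted p under 0.05. DESeq2 on the 16 libraries of mice 25 to 40 alone called 4 of 28974, with 1307 at an unadjusted p under 0.05. These 4, named after their values were seen, were Rnaseh2a (log2 fold change 0.52), Sult2a-ps1 (-5.11, with 78 counts in AL and 1 in IF), Vasn (0.81) and a gene without a symbol (0.84), with adjusted p from 0.0083 to 0.0366. The difference between the responses was tested as the interaction of diet and sex label and was called for 4184 genes (23.7%), 1919 with a higher and 2265 with a lower log2 fold change in mice 1 to 16.

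Several lists held many differences between the sets. For fatty acid oxidation the difference was called higher for 23 of 36 genes and lower for 0, with a median response of 1.15 in mice 1 to 16 and -0.02 in mice 25 to 40. For cholesterol synthesis, 1 of 25 was higher and 17 lower, with medians of -1.03 and 0.05. ER chaperones gave 2 higher and 17 lower of 24 (medians -0.78 and 0.17), fatty acid synthesis 3 and 12 of 21 (medians -0.47 and 0.25), and gluconeogenesis 6 and 0 of 9 (medians 0.76 and -0.07). Of the clock repressors, 7 of 10 were higher and 1 lower, with medians of 1.40 and 0.07.

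Among single genes, the rule for naming gave Ppp1r3g, Cyp3a16, Pdgfrl and Tuba8 among the largest differences upward and Mup9, Mup17, Derl3, Mup-ps14 and Npas2 for the largest downward. The value of Cyp3a16 rests on the few counts already given for mice 1 to 16, so no fold is given for it. Ppp1r3g lay between 0.175 and 11 CPM in AL and between 1.03 and 13 CPM in IF mice of the second set (log2 fold change 0.75, SE 0.57), and the difference of the responses was 7.37 (SE 0.98, adjusted p = 2.61e-06). Cyp4a14 gave log2 fold changes of 3.95 in mice 1 to 16 and -0.18 in mice 25 to 40, with a difference of 4.14 (SE 0.62, adjusted p = 1.22e-05). For Derl3 they were -5.54 and 0.60, with a difference of -6.14 (SE 0.79, adjusted p = 1.67e-06). For Cfd they were -4.74 and -5.22, the latter not called (adjusted p = 0.532) and resting on 265 counts over the AL and 5 over the IF libraries, with 5.99 CPM in AL mouse 31 and at most 0.445 CPM in any other AL mouse of that set, and the difference was not called either (0.48, SE 1.47, adjusted p = 0.853).

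The second set also started from other levels. In the fit over 32 libraries, 3530 of 17658 genes (20%) were called between AL mice 1 to 8 and AL mice 25 to 32. Of these, 1694 were higher and 1836 lower in mice 1 to 8. Arntl lay between 0.583 and 1.82 CPM and Dbp between 179 and 277 CPM in AL mice 25 to 32, where AL mice 1 to 8 lay between 15 and 26 CPM and between 1.41 and 30.6 CPM on the same scale. Both genes depend on the hour, so sex label and hour of collection cannot be told apart in the difference between the sets.

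**Figure D3:**
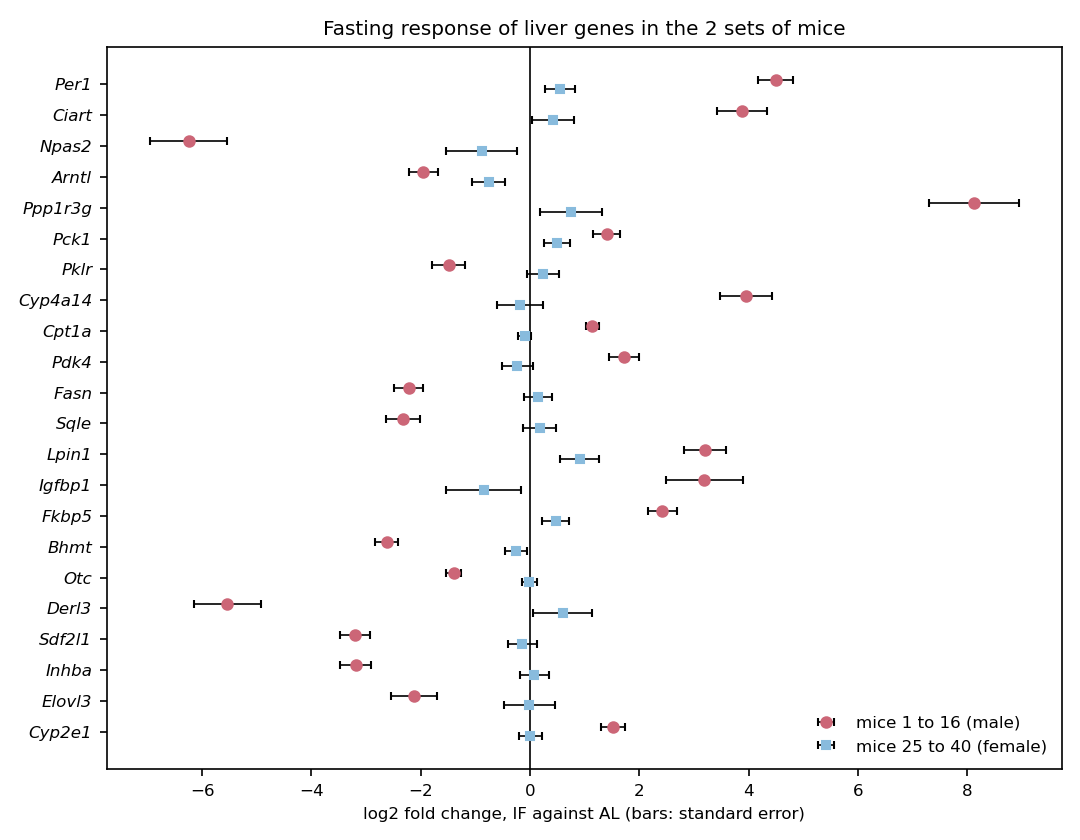
Log2 fold change of IF against AL for 22 liver genes in 8 and 8 male mice (1 to 16, circles) and 8 and 8 female mice (25 to 40, squares), from 1 fit over 32 libraries, with bars of 1 SE. Ppp1r3g lay at 8.12 and 0.75, Derl3 at -5.54 and 0.60, and Fasn at -2.22 and 0.15.

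The tests rest on edgeR's quasi-likelihood fit with Benjamini-Hochberg adjustment over all genes tested. Reads of overlapping genes, such as Dbp with Sphk2, Elovl3 with Pitx3 and Srebf1 with Rai1, cannot be told apart here, since the strand setting of the counting is not stated, and mRNA levels give neither protein amounts nor fluxes.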

How the data were processed

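RNA-seq of liver from the 8 AL and 8 IF mice was analysed, with the 16 liver libraries of mice 25 to 40 for the test of the difference. The deposited values are raw counts per gene, made by the authors with Hisat2 and featureCounts on GRCm39 from poly-A directional libraries. Total counts are given with the libraries. Of 56748 genes, those passing filterByExpr (minimum count 10, minimum total 15) were tested in edgeR 4.0.16 with TMM scaling and a robust quasi-likelihood fit, and Benjamini-Hochberg adjustment over all genes tested. Scripts were tested on simulated data.

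The members and the gene lists (29 pathway and 11 marker lists) were chosen with earlier results of these data known. Named genes are the 10 with the largest change in each direction, with no overlap, an adjusted p under 0.05, a mean of at least 5 CPM in the higher group and a symbol that is not a predicted-gene number. To these come up to 3 called members per direction and list with at least 1 CPM, set anchor genes and markers whatever their values, and the 5 largest differences between the sets in each direction.

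Alternatives were RLE size factors, DESeq2 1.42.0, other filters and thresholds, left-out libraries, a replicate block, an erythrocyte marker covariate, GC offsets and the removal of mitochondrially encoded genes, the last 2 and the removal of mice 6, 9 and 10 chosen after seeing the data. Promoters came from RefSeq (GRCm38.p6). Cortex and muscle libraries of the series were not analysed here.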

Additional observations from a re-analysis of the deposited data

Results flagged for a closer look

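Over the genes named in the text, the marker sums and the library measures, 278 groups of 8 mice were examined, and in 41 of them the highest or the lowest mouse lay far from the other 7. The share by chance was taken as about 1 in 20 groups, but it was not measured on these values. Many of the groups that stood out share a mouse, so the count is a description only. Where no end is named, the mouse was the highest.

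Among AL mice the following stood apart. In AL mouse 6 it was Ppp1r3g (0.815 CPM), Gys2 (134 CPM), Etfa (365 CPM), Cyp2c54 (955 CPM), Gdf15 (101 CPM) and the correlation with the mean of the other 7 (0.966, the lowest). For AL mouse 3 it held for Mup1 (2200 CPM) and Cyp8b1 (144 CPM, the lowest). AL mouse 8 stood apart in Nr1d1 (144 CPM), Foxo1 (8.76 CPM, the lowest) and Dbp (29.6 CPM). In AL mouse 2 it was Fbp1 (225 CPM), Herpud1 (338 CPM), Sqle (69.3 CPM), the cholangiocyte marker sum (138 CPM) and the neutrophil marker sum (8.05 CPM). For AL mouse 1 it held for Elovl3 (674 CPM), Ghr (537 CPM) and the sinusoidal endothelial cell marker sum (381 CPM). AL mouse 5 stood apart in Eif2s3y (87.5 CPM).

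Among IF mice the following stood apart. In IF mouse 11 it was Ppp1r3g (126 CPM) and Sqle (13 CPM). For IF mouse 9 it held for Pdgfrl (267 CPM), Cux2 (3.84 CPM) and Ddx3y (63 CPM). IF mouse 14 stood apart in Acot1 (265 CPM). In IF mouse 12 it was Mup17 (142 CPM). For IF mouse 10 it held for Klhl31 (1.42 CPM). IF mouse 13 stood apart in Per3 (42.4 CPM) and Sdf2l1 (2.55 CPM, the lowest). In IF mouse 15 it was Trib3 (22 CPM). For IF mouse 16 it held for Saa2 (138 CPM), Saa1 (203 CPM), Ccne1 (3.85 CPM), Ccnd1 (6.96 CPM), Gbp2 (16 CPM), Isg15 (10.9 CPM), B2m (1960 CPM), Lcn2 (14.3 CPM), the Kupffer cell marker sum (673 CPM) and the lymphocyte marker sum (64.7 CPM).

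The response to fasting differed between mice 1 to 16 and mice 25 to 40 for 4184 of 17658 genes (23.7%) by edgeR's test of the interaction, and for 93 of the 121 named genes compared. Many of the named genes were chosen for a large or called change in mice 1 to 16 or for a large difference between the sets, so their share is not a result. Each value is the log2 fold change of mice 1 to 16 minus that of mice 25 to 40.

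The difference was positive for Ppp1r3g (7.37), Pdgfrl (4.73), Tuba8 (4.72), Usp2 (4.38), Acot3 (4.41), Per1 (3.95), Acot1 (4.51), Mt1 (4.00), Cyp4a14 (4.14), Ciart (3.46), Per3 (2.14) and Wee1 (2.60). Also positive were Pck1 (0.91), Fbp1 (1.23), Slc37a4 (0.90), Ldha (2.04), Gys2 (0.94), Lpin1 (2.29), Abcg5 (1.21), Abcg8 (0.82), Cyp2a4 (2.89), Igfbp1 (4.04), Igfbp2 (1.51) and Foxo1 (1.37). Further positive values were those of Trib3 (1.38), Gadd45b (3.26), Gnmt (1.5), Asl (0.70), Angptl4 (2.48), Saa2 (3.02), Orm2 (2.03), Ces1d (2.47), Herpud1 (1.19), Hspd1 (0.88), Hspe1 (0.65) and Cebpb (1.29). The difference was positive for Map1lc3a (1), Hexa (1.11), Cyp2e1 (1.51), Ccnd1 (1.34), Gbp2 (1.98), Dbp (1.39), Cpt1a (1.24), Pdk4 (1.95), Fkbp5 (1.96), Glul (0.87) and Hbb-bs (3.59). In the fit of mice 1 to 16 alone, some log2 fold changes depended on 1 mouse. The value moved from 1.97 to 0.57 for Saa2 and from 1.82 to 0.88 for Gbp2 without IF mouse 16, and neither was then called. It moved from 5.63 to 4.56 for Pdgfrl without IF mouse 9 and from 8.16 to 8.81 for Ppp1r3g without AL mouse 6. The difference between the sets was not tested without these mice.

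The difference was negative for Mup17 (-6.35), Mup9 (-6.40), Mup-ps14 (-5.85), Npas2 (-5.37), Mup18 (-4.95), Derl3 (-6.14), Klhl31 (-4.55), Mup-ps12 (-4.05), Mup1 (-4.03), Arntl (-1.18), Nr1d1 (-1.69) and Pklr (-1.73). Also negative were Gckr (-1.17), Ppp1r3c (-1.34), Pygl (-0.82), Slc16a6 (-1.43), Fasn (-2.36), Acly (-1.71), Fdps (-2.62), Dhcr7 (-2.39), Cyp7a1 (-1.21), Elovl3 (-2.11), Prlr (-1.43) and Insr (-0.35). Further negative values were those of Bhmt (-2.37), Otc (-1.38), Inhba (-3.26), Angptl8 (-2.29), Cp (-0.93), Cyp2c54 (-1.24), Gstt1 (-1.21), Sdf2l1 (-3.06), Manf (-2.62), Syvn1 (-2.20), Atf4 (-0.71) and Apof (-1.22). The difference was negative for Lgr5 (-1.46), Isg15 (-1.49), B2m (-1.12), Acaca (-0.65), Srebf1 (-1.03), Scd1 (-1.43), Sqle (-2.51), Hsd3b5 (-1.73), Hspa5 (-0.94) and Apoa1 (-0.83). For Mup1 the log2 fold change of mice 1 to 16 alone moved from -4.32 to -2.19 without AL mouse 3. It moved from -7.15 to -7.91 for Mup17 without IF mouse 12, from -6.59 to -7.21 for Mup-ps14 without IF mouse 11 and from -6.22 to -7.01 for Npas2 without IF mouse 10. Here too the difference was not tested without these mice.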

How the results depend on the processing

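The count of 7234 called genes moved to 2388 when at least a 2-fold change was also asked for, and the count of 4184 genes with a different response to 1839. In each other alternative the counts stayed within 1.5 times the main ones. For mice 1 to 16 these were 7217 with RLE size factors, 7719 by DESeq2, 9270 with no filter, 6682 with at least 10 counts in every library, 8322 at an unadjusted p under 0.05, 7335 in a fit over 32 libraries and 5169 with the erythrocyte marker covariate. Without AL mouse 2 and IF mouse 10 the count was 6965, and without AL mouse 2 and IF mouse 9 it was 6868. Leaving out 1 library gave 6842 to 7219. Lower calls outnumbered higher ones also with no filter (4370 higher and 4900 lower), in the fit over 32 libraries (3532 and 3803), without AL mouse 2 and IF mouse 9 (3321 and 3547) and without mitochondrially encoded genes (3549 and 3647). Alternatives chosen after seeing the data gave 6997 without mice 6, 9 and 10, 7082 with GC offsets and 7196 with mitochondrially encoded genes left out. For the difference between the sets the count lay between 3682, with the erythrocyte covariate, and 6102 at an unadjusted p.

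Replicate numbers do not name shared animals. With the number as a block, 7090 genes were called and 3692 had a different response. Of the genes in the text, the block left Orm2 (log2 fold change 1.42, adjusted p = 0.0575), Saa1 (1.07, 0.196) and Saa2 (1.03, 0.261) uncalled and called Alb (-0.28, 0.0469). Same-numbered libraries correlated by -0.041 to 0.105 in their deviations from the group means, and 2 of 8 AL libraries were closest to their own number, so the numbers were not taken as a pairing.

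The rule for naming gave 199 tested genes, more than the text names, and the counts of ended calls below are over these 199. Among them Hba-a1 (-0.04) and Slc4a1 (-0.13) turned in direction, both with the erythrocyte covariate, which holds these genes. That covariate also ended 29 calls, the 2-fold rule 51 and leaving out mice 6, 9 and 10 ended 14. The cause was not tested. Beside the losses given with each gene, the fit over 32 libraries did not call Acat1 (log2 fold change 0.26, adjusted p = 0.221), Fgb (-0.37, 0.0558), Fgf21 (0.96, 0.131) or Saa1 (1.53, 0.0797). The main log2 fold changes of these genes were 0.30, -0.33, 0.99 and 1.57, and those of Saa2 and Eif2s3y 1.97 and -0.30. GC offsets did not call Fgb (-0.29, 0.0563) or Saa1 (1.46, 0.0649), nor Eif2s3y, whose log2 fold change came to -0.04 (0.755). Without mice 6, 9 and 10, Fgb (-0.27, 0.0546), Eif2s3y (-0.25, 0.0583) and Saa1 (1.72, 0.0788) were not called. With no filter, Acat1 (0.26, 0.0713), Fgf21 (0.96, 0.0835), Saa1 (1.54, 0.0678) and Saa2 (1.95, 0.0523) were not called, and with RLE scaling Saa1 was not (1.54, 0.0516). By list, RLE scaling and leaving out mitochondrially encoded genes each gave 9 higher and 3 lower acute phase genes, 10 and 9 secreted proteins, 10 and 1 glucocorticoid-induced genes, 4 and 3 cell cycle genes and 1 and 1 ketone body genes, and moved every other list by at most 1 gene in either direction. The erythrocyte covariate moved more lists. Besides the lists given with their values above, it gave 1 higher and 1 lower ketone body gene, 15 and 10 genes of xenobiotic metabolism, 18 and 1 of autophagy, 8 and 5 of secreted proteins, 25 and 0 of fatty acid oxidation, 11 and 5 female-biased genes, 2 and 0 erythrocyte markers and 1 and 0 hepatocyte markers. GC offsets gave 4 higher and 7 lower pericentral genes, 6 and 0 of gluconeogenesis, 2 and 20 of cholesterol synthesis, 9 and 2 of the acute phase, 20 and 10 of xenobiotic metabolism, 17 and 3 of autophagy and 0 called Kupffer cell markers. Without mice 6, 9 and 10 there were 9 and 9 bile acid genes, 10 and 15 of amino acid breakdown, 13 and 5 female-biased genes, 19 and 10 of xenobiotic metabolism, 7 and 6 pericentral genes and 2 and 7 interferon genes, whose median was -0.05. Depth limits genes with few counts, such as Cyp3a16, and counting error is only part of the spread.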
